A study of Mus musculus with 14 samples.

Results

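RNA recovered by precipitation of ribosomes with phosphorylated S6 was compared between mice on a high-fat diet and mice on a control diet. The comparison rests on 7 of the 14 libraries of the study, chosen by their labels: 4 immunoprecipitates (IP) from high-fat diet and 3 from control diet, read over the 12478 genes whose mean FPKM was 1 or more. FPKM counts fragments per kilobase of a transcript, relative to all fragments mapped in the library. All animals were 10-week-old male mice of strain and genotype C57BL/6N, fed either diet for 3 days, and each library came from 1 pool of 8 hypothalami. Because tissue was pooled, spread between single animals was not measured. The other 7 libraries hold input RNA of the same 2 diets, taken before precipitation. Single libraries are named by diet and by the index of their column, from 0 to 3 on high-fat diet and from 0 to 2 on control diet. Where values follow each other without a name, high-fat libraries come first and control libraries after "against", each in the order of that index.

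S6 is a protein of the small ribosomal subunit. It is phosphorylated by S6 kinases downstream of mTOR and of other signalling pathways, and in neurons its phosphorylation is widely used as a mark of recent activity. An antibody against phosphorylated S6 therefore enriches ribosomes, with the mRNAs they hold, from cells in which the mark is high. In the hypothalamus, neurons of the arcuate nucleus that make Agrp and Npy drive feeding, neurons that make Pomc restrain it, and both respond to nutrients and to leptin.

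The IP libraries varied within each diet. Entries listed at exactly 0 made up 9.57, 1.40, 3.83 and 1.87% of the table in the high-fat libraries and 10.9, 0.771 and 5.18% in the control libraries. Transcripts encoded in mitochondria took 12.8, 4.24, 6.62 and 4.43% of the summed FPKM in high-fat libraries, against 15.6, 7.81 and 2.66% in control libraries. Both measures were highest in library 0 of each diet. Neither diet difference was larger than the spread of the libraries (exact permutation over the 35 splits, two-sided p = 0.6 and 0.686; the smallest possible p is 0.0286). Correlations of log2(FPKM + 1) ran from 0.823 to 0.917 within high-fat libraries, from 0.72 to 0.83 within control libraries and from 0.732 to 0.914 between diets. The first principal component, with 32.6% of the variance, set control library 0 apart, and the second, with 24% of the variance, separated high-fat library 0 from control library 2. Results that follow rest on these libraries too. Without library 0 of each diet, the log2 difference moved by over 1.5 times for 64 of the 133 genes read singly, and for 2 of the 24 with the smallest p. Such values are given below beside those of the 133 genes that are described by their difference, and beside list medians that moved as far. Genes outside the 133, among them Coro1c and Rps6, carry no such value below, whether or not their difference moved.

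Markers of the hypothalamus were present with those of its neighbour. Hcrt, the orexin precursor, lay between 5.83 and 44.9 FPKM over the 7 libraries, and Pmch, the precursor of melanin-concentrating hormone, between 122 and 355 FPKM. The hypothalamic transcription factor Otp lay between 1.06 and 4.08 FPKM, Nkx2-1 between 0 and 4.49 FPKM and Avp, the vasopressin gene, between 0 and 5.39 FPKM. Sim1 reached at most 0.527 FPKM and missed the floor. Transcription factors of the thalamus were far higher per length: Tcf7l2 ranged from 577 to 1217 FPKM and Lef1 from 327 to 1182 FPKM. The neuronal synapse gene Snap25 ranged from 7203 to 13363 FPKM. In bulk libraries of this kind, fewer cells of a type and less RNA per cell cannot be told apart.

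No gene passed the adjusted threshold of 0.05 between diets in the IP (limma on log2(FPKM + 1), Benjamini-Hochberg over 12478 genes; 0% called). The smallest adjusted p was 0.109. At an unadjusted p under 0.05, 359 genes (2.88%) had higher and 354 (2.84%) had lower values on high-fat diet, 713 in all or 5.71% of the genes. All high-fat libraries lay above all control libraries for 400 genes (3.21%) and below them for 391 genes (3.13%). Differences were nevertheless wide in size: 1697 genes (13.6%) differed by at least 1 on the log2 scale in the IP, against 20 genes (0.16%) in the input. The median residual SD between libraries of a diet was 0.693 on the log2 scale in the IP and 0.184 in the input. The median SE of the diet difference was 0.558, and the 95% interval reached a median of 1.22 to either side of a gene's estimate. The median difference of all genes was -0.02, with 6044 of 12478 genes above 0. When 1 fit over all 14 libraries lent the IP the smaller spread of the input, 75 genes passed, 32 higher and 43 lower on high-fat diet.

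**Figure D1:**
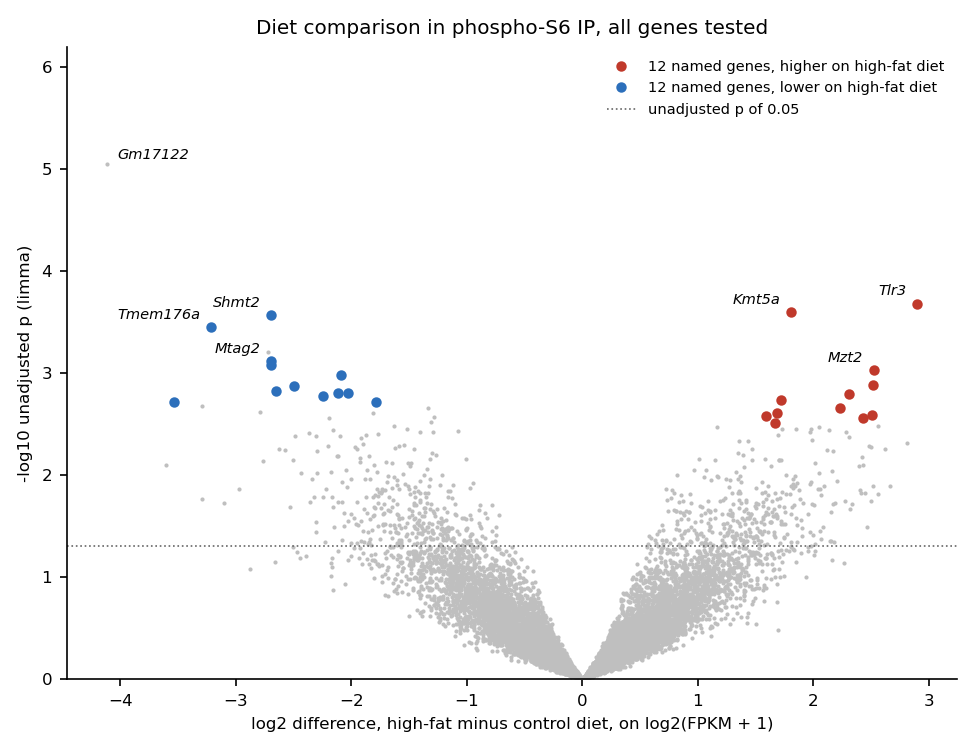
Log2 difference of each of 12478 genes between high-fat and control IP libraries (horizontal axis, on log2(FPKM + 1)) against -log10 of the unadjusted limma p (vertical axis). The 24 coloured points are the named genes with an adjusted p of 0.813 each, and the dotted line marks an unadjusted p of 0.05; the point nearest to the adjusted threshold is Gm17122 with an adjusted p of 0.109.

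Since no gene passed, the 12 genes per direction with the smallest p, no overlap between diets and a usual symbol are described, as values that did not pass. Those with higher values on high-fat diet come first. Tlr3, the endosomal receptor for double-stranded RNA (chr8:45395665-45411080, minus strand, GRCm38), was at 13.7, 17.7, 9.37 and 11.3 FPKM in high-fat libraries, against 0.215, 1.43 and 1.10 FPKM in control libraries. Every high-fat library was above every control library by a wide gap, and the difference was 2.89 ± 0.54 (SE) on the log2(FPKM + 1) scale (limma, unadjusted p = 0.000207, adjusted p = 0.813). Kmt5a, a histone methyltransferase that acts on chromatin compaction (chr5:124439930-124462308, plus strand), was at 184, 94.2, 147 and 170 FPKM in high-fat libraries, against 25.4, 54.9 and 47.7 FPKM in control libraries, a difference of 1.80 ± 0.35 (adjusted p = 0.813). This was the most abundant of the 12 genes, and its lowest high-fat library stood well above its highest control library.

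Polrmt, the RNA polymerase of mitochondria, was at 8.46, 2.31, 4.86 and 6.85 FPKM in high-fat libraries, against 0.244, 0.755 and 0.0274 FPKM in control libraries, a difference of 2.23 ± 0.57. Its control values all lay under 1 FPKM. Mrpl17, a protein of the large mitochondrial ribosomal subunit, was at 75.2, 38.8, 139 and 55.4 FPKM against 2.59, 17.4 and 27.4 FPKM, a difference of 2.5 ± 0.65. Control library 0 was the lowest of all 7 for Mrpl17, and the difference was 1.57 without library 0 of each diet. Emg1, a methyltransferase of ribosome assembly, was at 107, 82.3, 64.3 and 61.8 FPKM against 10.2, 29.7 and 40.4 FPKM, a difference of 1.69 ± 0.44, or 0.97 without library 0 of each diet. Pcif1, which methylates the adenosine next to the mRNA cap, was at 17.3, 18.0, 19.2 and 14.5 FPKM against 6.16, 4.96 and 4.19 FPKM, a difference of 1.59 ± 0.41. Pcif1 had the tightest groups of these genes, with 17.3 ± 1.97 FPKM (SD, n = 4) and 5.10 ± 0.99 FPKM (SD, n = 3).

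S100a10, an annexin-binding protein of the cell membrane, was at 28.9, 18.7, 28.0 and 27.4 FPKM in high-fat libraries, against 2.02, 13.5 and 2.45 FPKM in control libraries. Control library 1 lay much closer to the high-fat libraries than the other control libraries did, and the difference was 2.31 ± 0.56. Slc20a1, a sodium-coupled phosphate transporter, was at 173, 45.8, 65.8 and 73.3 FPKM against 27.6, 26.6 and 16.9 FPKM, with high-fat library 0 far above the rest. Galt, an enzyme of galactose breakdown, was at 27.9, 16.0, 17.7 and 12.6 FPKM against 4.20, 6.26 and 4.43 FPKM. Mzt2, a part of the gamma-tubulin complex that nucleates microtubules, was at 13.8, 26.4, 18.4 and 37.2 FPKM against 0.945, 6.96 and 3.39 FPKM. Fahd2a had a mean of 13.6 ± 5.92 FPKM (SD, n = 4) against 1.97 ± 1.69 FPKM (SD, n = 3). The remaining entry, Mir8112, lies within exons of Krcc1 on the same strand, so that its 17.8 to 37.5 FPKM against 1.34 to 11.6 FPKM cannot be told apart from reads of that gene.

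**Figure D2:**
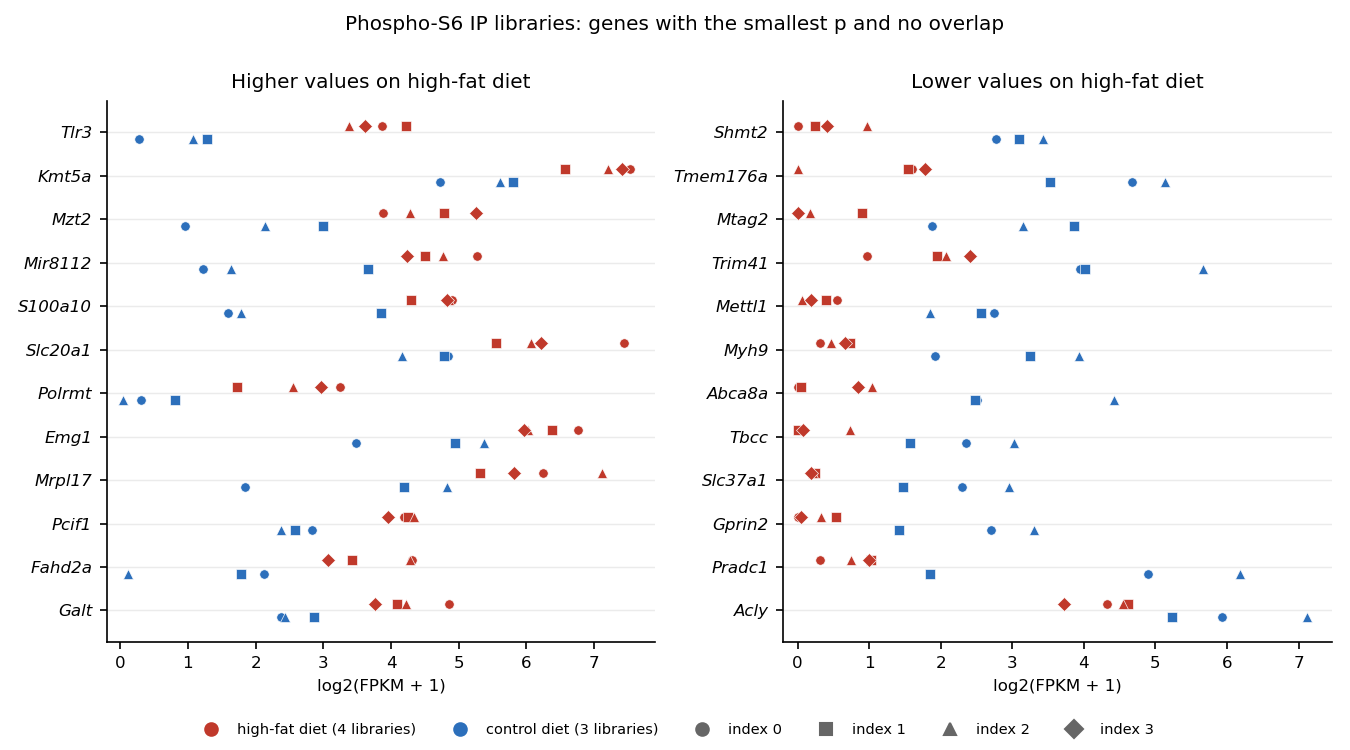
Level of each named gene in each IP library as log2(FPKM + 1), with high-fat libraries in red, control libraries in blue and the column index as the symbol. In all 24 genes the colours do not overlap, which the naming rule required; adjusted p was 0.813 for each.

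Genes with lower values on high-fat diet were mostly near 0 FPKM there, and for 6 of the 12 at least 1 high-fat library was listed at exactly 0. On the log2(FPKM + 1) scale such differences are smaller than log2 ratios of the listed FPKM would be. Whether the listed values near 0 are true levels was not tested. Shmt2, the mitochondrial serine hydroxymethyltransferase that feeds folate metabolism (chr10:127517123-127522444, minus strand), was at 0, 0.187, 0.953 and 0.334 FPKM in high-fat libraries, against 5.83, 7.58 and 9.76 FPKM in control libraries. All high-fat values were under 1 FPKM and all control values above 5 FPKM, a difference of -2.69 ± 0.52 (limma, unadjusted p = 0.000268, adjusted p = 0.813). Tmem176a, a membrane protein gene, was at 2.04, 1.91, 0 and 2.43 FPKM against 24.6, 10.6 and 34.1 FPKM, a difference of -3.22 ± 0.64. Mettl1, a methyltransferase of tRNA, was at 0.468, 0.318, 0.0405 and 0.135 FPKM against 5.70, 4.90 and 2.60 FPKM, a difference of -2.09 ± 0.48.

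Acly, the ATP citrate lyase that supplies acetyl-CoA for the synthesis of fatty acids and cholesterol (chr11:100476353-100528000, minus strand), was the only one of the 12 expressed above 10 FPKM in every library. It was at 19.0, 23.5, 22.5 and 12.2 FPKM in high-fat libraries, against 60.1, 36.6 and 137 FPKM in control libraries, a difference of -1.79 ± 0.45 (adjusted p = 0.813). In the input its diet difference was -0.06 ± 0.13. Trim41, a ubiquitin ligase, was at 0.968, 2.85, 3.21 and 4.32 FPKM against 14.5, 15.3 and 49.5 FPKM. Myh9, the heavy chain of a non-muscle myosin, was at 0.240, 0.657, 0.381 and 0.582 FPKM against 2.79, 8.52 and 14.3 FPKM. Pradc1 spread widely on control diet, with 28.8, 2.59 and 71.6 FPKM against 0.248, 1.04, 0.679 and 0.996 FPKM on high-fat diet, and its difference of -3.54 had an SE of 0.88. The other 5 were Mtag2, the ABC transporter Abca8a, the tubulin folding cofactor Tbcc, the sugar phosphate transporter Slc37a1 and Gprin2, with differences from -2.70 to -2.03 and high-fat means from 0.163 to 0.472 FPKM.

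The library kit does not mark strand, and 12 of the 24 genes have exons that overlap a gene on the other strand. Among them are Tlr3 with Gm45542, Emg1 with Lpcat3, Shmt2 with Ndufa4l2, Trim41 with Rack1 and Pradc1 with Cct7. For these pairs, reads within the shared stretch cannot be told apart. How much of each gene that stretch covers was not measured. Kmt5a, S100a10, Polrmt, Mrpl17, Myh9 and Acly have no such overlap in GENCODE M21.

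The 24 genes were named for their p and lack of overlap in the IP, so that larger differences there than in the input follow from the naming rule and are a description. None had an unadjusted p under 0.05 between diets in the input, where the largest difference among them was 0.601 in size, for Polrmt. The IP difference minus the input difference was 2.84 ± 0.46 for Tlr3 and -2.66 ± 0.44 for Shmt2. The adjusted p was 0.101 for each, the smallest among the 24, none of which passed. That fit shared 1 spread over all 14 libraries, which lent the IP the mostly smaller spread of the input. Its SE and p can therefore be too small for the IP part, and so can the counts below. Over all genes, 0 of 12478 passed between diets in the input (0% called; smallest adjusted p 0.425, 714 at an unadjusted p under 0.05). For the difference between IP and input, 1 gene passed (0.00801% called), and 844 had an unadjusted p under 0.05. That count was 7 without control IP library 0, 128 without control IP library 1 and 12 without library 0 of both diets.

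**Figure D3:**
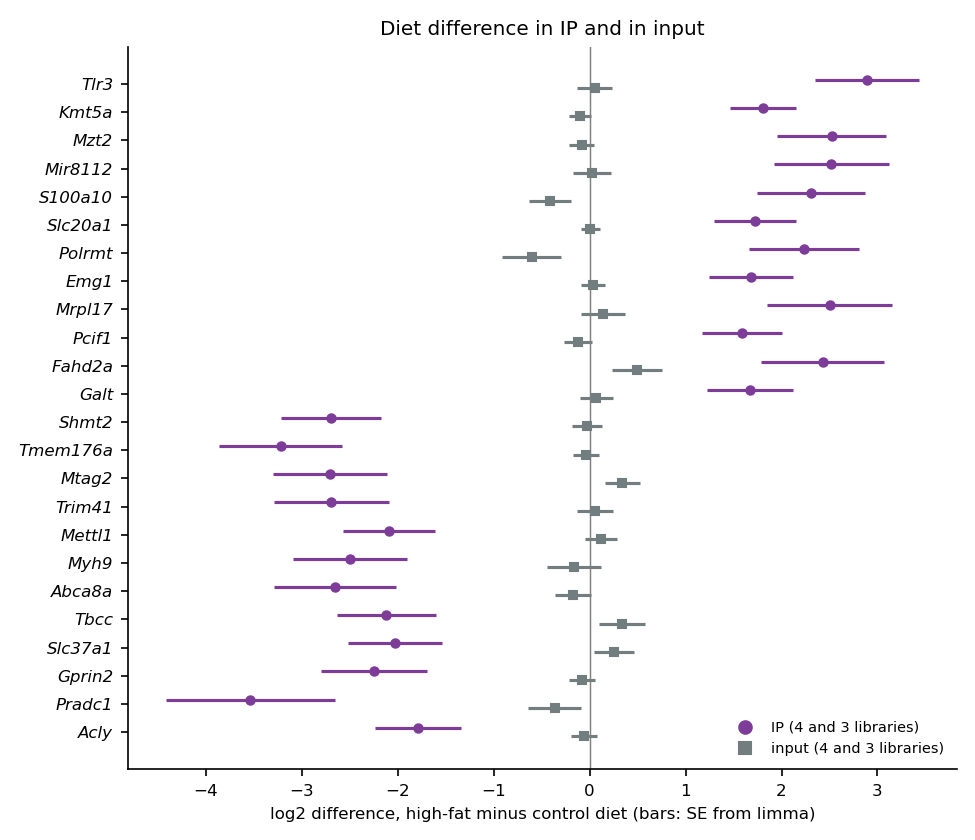
Diet difference (high-fat minus control, log2 scale, bars are the SE from limma) of the 24 named genes in the IP (purple circles) and in the input (grey squares). Input differences all lie within 0.601 of 0, while IP differences, by which the genes were chosen, run from -3.54 to 2.89.

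The gene that passed in the difference was Gm17122, an antisense gene model within Coro1c (chr5:113842601-113843116, plus strand), named here after its values were seen. In the IP it was under 0.001 FPKM in all 4 high-fat libraries and at 12.9, 11.5 and 28.9 FPKM in the control libraries. The deposited high-fat values lie between 4.15e-136 and 1.6e-31 FPKM, far below what a single fragment could give, so that they are output of the authors' estimation and not measured levels. In the input the order was the opposite, with 12.9, 14.4, 7.12 and 2.02 FPKM in high-fat libraries and 0.989, 1.71 and 1.53 FPKM in control libraries. Groups did not overlap in either fraction. Its diet difference was -4.12 ± 0.54 in the IP (adjusted p = 0.109) and 1.83 ± 0.49 in the input (adjusted p = 0.844). The difference between them was -5.95 ± 0.70 (limma, adjusted p = 0.00529, from the fit with 1 spread shared by IP and input). Coro1c, a coronin that binds actin, was at 7.30, 11.3, 6.95 and 15.6 FPKM against 44.3, 21.9 and 13.2 FPKM in the IP, with overlapping groups and a difference of -1.19 ± 0.49. Because strand is not marked, reads of Gm17122 and Coro1c cannot be told apart where their exons overlap.

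Peptides that act on appetite were read from 2 lists, of which 21 genes were tested. None passed the adjusted threshold, 2 had higher and 1 had lower values at an unadjusted p under 0.05, against 2.88 and 2.84% of all genes. Pomc, the precursor of alpha-MSH that restrains feeding, was at 22.8, 15.7, 11.5 and 8.33 FPKM in high-fat libraries, against 0, 5.07 and 5.76 FPKM in control libraries. High-fat libraries were all above control libraries, with a difference of 2.09 ± 0.71 (limma, unadjusted p = 0.0129, adjusted p = 0.813). The difference was 0.96 without library 0 of each diet (limma, unadjusted p = 0.0765). Pnoc, the nociceptin precursor, was at 3.37, 1.40, 4.66 and 3.00 FPKM against 0.178, 0.773 and 0.278 FPKM, again without overlap, a difference of 1.5 ± 0.51 (unadjusted p = 0.0134). Crh, the corticotropin-releasing hormone, was at 1.32, 1.01, 0 and 0.0947 FPKM against 0, 16.4 and 11.5 FPKM. Control library 0 was listed at 0 for Crh while the other control libraries were the highest of all 7, so that the groups overlapped, and the difference was -2.0 ± 0.89 (unadjusted p = 0.0458), or -3.50 without library 0 of each diet.

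Agrp and Npy, which the same arcuate neurons make to drive feeding, had differences of opposite sign, neither with an unadjusted p under 0.05. Agrp was at 27.4, 11.4, 0.606 and 8.43 FPKM in high-fat libraries, against 0, 1.19 and 6.57 FPKM in control libraries, a difference of 1.74 ± 0.97. Npy was at 0, 9.96, 13.9 and 22.2 FPKM against 7.52, 9.89 and 40.7 FPKM, a difference of -1.0 ± 0.98. High-fat library 0 was highest of the 7 for Agrp and listed at 0 for Npy, and both genes overlapped between diets. The differences were 0.49 for Agrp and -0.45 for Npy without library 0 of each diet. Ctcf overlaps exons of Agrp on the other strand, and reads within the shared stretch cannot be told apart. Hcrt was at 44.9, 23.9, 12.8 and 19.2 FPKM against 6.62, 25.6 and 5.83 FPKM, a difference of 1.09 ± 0.57 with overlapping groups, or 0.50 without library 0 of each diet.

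Cck and Pmch, the most abundant peptide genes of these lists per length, differed by less than their SE. Cck, the cholecystokinin gene, averaged 1884 ± 334 FPKM (SD, n = 4) in high-fat and 2010.4 ± 692 FPKM (SD, n = 3) in control libraries, a difference of -0.06 ± 0.29. Pmch was at 122, 340, 179 and 225 FPKM against 355, 195 and 143 FPKM, a difference of -0.09 ± 0.39. They were -0.31 for Cck and 0.52 for Pmch without library 0 of each diet. Leaving out 1 library reversed the sign for Pmch, Cck, Penk, Pdyn, Cartpt, Nucb2, Vip, Gal, Grp and Tac1. For Pomc and Pnoc the sign could not reverse in such a fit, because their groups did not overlap.

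**Figure D4:**
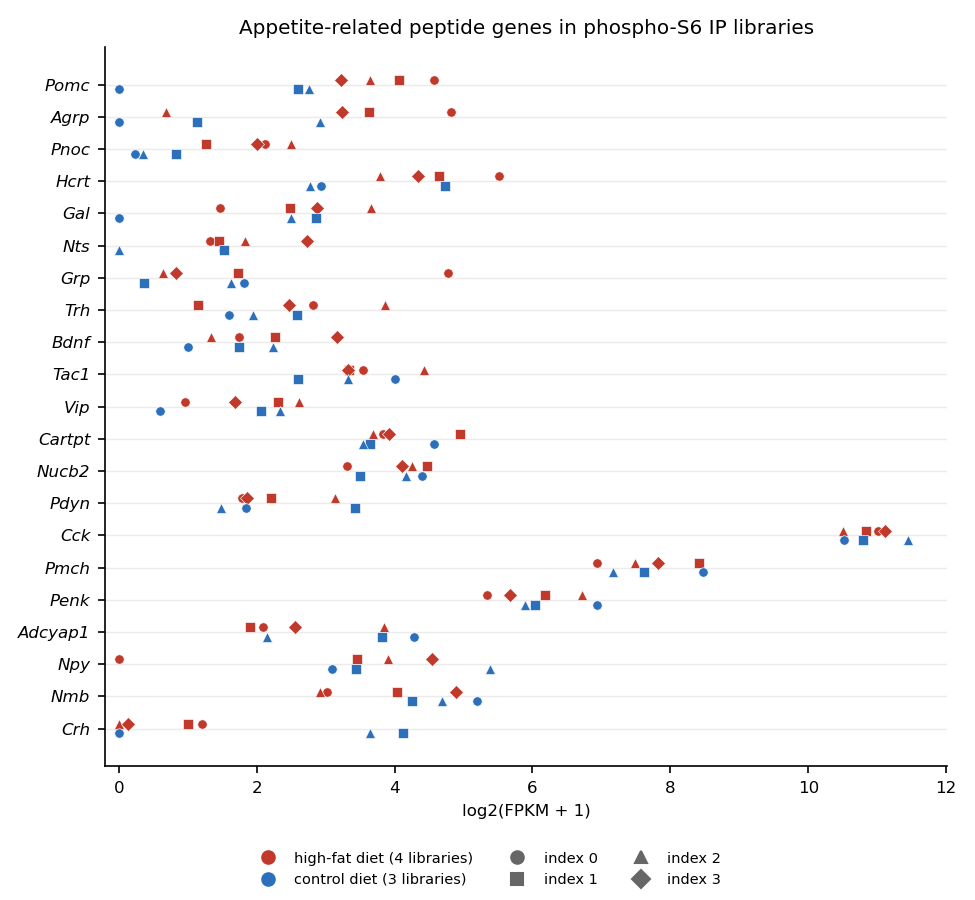
Level of 21 appetite-related peptide genes in each IP library as log2(FPKM + 1), ordered by the diet difference, with high-fat libraries in red, control libraries in blue and the column index as the symbol. The colours separate for Pomc and Pnoc and overlap for the other genes shown.

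Opioid peptides and their receptors had 8 tested genes, of which 3 had higher (37.5%, against 2.88% of all genes) and 1 had lower values (12.5%, against 2.84%) at an unadjusted p under 0.05. Pomc and Pnoc are members of this list as well. Oprd1, the delta opioid receptor, was at 9.67, 1.46, 1.74 and 2.32 FPKM in high-fat libraries, against 0, 0.703 and 0.0718 FPKM in control libraries, a difference of 1.69 ± 0.61 without overlap. Oprm1, the mu receptor, was at 6.75, 15.6, 12 and 20.6 FPKM against 59.7, 16.6 and 32.4 FPKM, a difference of -1.25 ± 0.50 with overlap. Leaving out library 0 of each diet gave 1.06 for Oprd1 (limma, unadjusted p = 0.0543) and -0.53 for Oprm1 (unadjusted p = 0.244). Of the opioid genes past that level, only Pnoc kept it in that fit (limma, unadjusted p = 0.0433), so these shares rest largely on library 0. Among 24 receptors for feeding signals, 1 had a higher value at that level (4.17%, against 2.88%): Cckbr, a receptor of cholecystokinin and gastrin, at 4.07, 6.07, 1.83 and 2.07 FPKM against 0.540, 1.18 and 0.804 FPKM, without overlap (1.21 ± 0.55). Lepr, the leptin receptor, was at 0.143, 2.52, 4.06 and 4.72 FPKM against 0.890, 0.773 and 0.0569 FPKM. High-fat library 0 lay among the control libraries for Lepr, and its difference was 1.11 ± 0.63, or 1.77 without library 0 of each diet.

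Genes induced by neuronal activity showed no difference past either level. Of 20 tested, 0 had an unadjusted p under 0.05, 15 lay above 0, and the median was 0.336 against -0.02 for all genes. Without library 0 of each diet that median was 0.056. Egr3, an activity-induced transcription factor, was at 26.5, 21.1, 13.5 and 10.8 FPKM against 0.861, 11.2 and 17.6 FPKM. Fosb, a transcription factor of the Fos family, was at 5.71, 7.47, 5.49 and 4.25 FPKM against 2.01, 2.74 and 5.22 FPKM. Control library 0 held the lowest value of both genes. The Egr3 difference of 1.26 became 0.05 without library 0 of each diet, and that of Fosb went from 0.69 to 0.45. In leptin, insulin and cytokine signalling, 0 of 17 genes had an unadjusted p under 0.05 and 12 lay below 0, with a median of -0.314. Irs2, an adaptor of the insulin receptor, was at 6.36, 9.39, 13.8 and 14.8 FPKM against 16.1, 16.8 and 38.7 FPKM, lower without overlap, with a difference of -0.99 ± 0.47. Socs2, a feedback inhibitor of cytokine receptors, was higher without overlap, at 7.09 to 12.8 FPKM against 2.67 to 6.40 FPKM.

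Stress and immune lists gave few genes past the unadjusted level. In the unfolded protein response, 1 of 26 was higher and 1 lower, 3.85% each and near the 2.88 and 2.84% of all genes. The median of 0.120 became -0.064 without library 0 of each diet. Xbp1, a transcription factor of that response, was at 19.9, 14.6, 7.78 and 14.8 FPKM against 2.1, 6.22 and 4.41 FPKM, without overlap (1.56 ± 0.52). Chac1, a glutathione-degrading enzyme, was at 0.369, 0.396, 0.536 and 1.97 FPKM against 16.7, 8.87 and 1.69 FPKM, with overlap (-2.18 ± 0.70). Of 11 interferon response genes, 9 lay above 0 with a median of 0.643, or 0.569 without library 0 of each diet, and 1 was higher at an unadjusted p under 0.05 (9.09%, against 2.88%). That gene was B2m, the light chain of MHC class I, at 116, 115, 83.6 and 82.2 FPKM against 68.6, 67.3 and 52.3 FPKM, without overlap (0.64 ± 0.27). Among 20 heat shock genes and chaperones, Cryab, a small heat shock protein gene, was at 275, 102, 107 and 109 FPKM against 35.4, 99.0 and 18.9 FPKM. Fkbp4, a cochaperone of steroid receptors, was at 29.0, 32.0, 31.0 and 23.6 FPKM against 150, 43.3 and 50.2 FPKM. Neither overlapped between diets, and they lay in opposite directions (1.70 ± 0.52 and -1.24 ± 0.42). The Fkbp4 difference was -0.69 without library 0 of each diet. Cdkn1a, an inhibitor of the cell cycle that glucocorticoids induce, was at 0, 4.30, 3.46 and 2.48 FPKM against 20.4, 5.15 and 23.4 FPKM, the only one of 16 genes of its list past the unadjusted level (6.25%, against 2.84%). Its difference of -2.29 became -1.49 without library 0 of each diet.

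Lists of lipid and glucose metabolism held more lower than higher genes at the unadjusted level. For the synthesis of fatty acids and cholesterol, 2 of 31 genes were lower (6.45%, against 2.84% of all genes) and 0 higher: Acly, and Fdft1, the squalene synthase, at 14.2, 16.8, 9.42 and 14.6 FPKM against 28.4, 15 and 47.4 FPKM with overlap. The median of that list was -0.075 as deposited, 0.015 after quantile normalization and 0.021 without library 0 of each diet. In fatty acid oxidation and ketone metabolism, 2 of 30 were lower (6.67%, against 2.84% of all genes) and 1 higher (3.33%, near the 2.88% of all genes). The median was 0.005, or 0.282 without library 0 of each diet. Acadm, the medium-chain acyl-CoA dehydrogenase, was at 0.694, 3.75, 2.07 and 2.31 FPKM against 13.1, 21.6 and 2.71 FPKM. Acadm overlapped between diets through control library 2.

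Lpl, the lipoprotein lipase, was at 0.127, 0.508, 0.301 and 2.64 FPKM in high-fat libraries, against 6.17, 3.05 and 6.90 FPKM in control libraries, without overlap (-1.86 ± 0.59, unadjusted p = 0.00882). It was 1 of 2 lower genes among 25 of lipid handling (8%, against 2.84%). The other was Lrp1, a lipoprotein receptor, at 10.8, 10.5, 13.7 and 15.8 FPKM against 91.1, 13.4 and 29.6 FPKM with overlap; its difference of -1.35 became -0.57 without library 0 of each diet. In glycolysis and glucose transport, 17 of 26 genes lay below 0 with a median of -0.125 and 1 was lower at the unadjusted level (3.85%, against 2.84%). Without library 0 of each diet that median was -0.022, and the median of all genes was -0.027. That gene was Gpi1, the glucose phosphate isomerase, at 21.8, 50.5, 33.4 and 41.6 FPKM against 170, 48.5 and 85.8 FPKM, and its difference went from -1.32 to -0.63 in the same fit.

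Genes of mitochondrial respiration are encoded in the nucleus and in the mitochondria. Nuclear genes of oxidative phosphorylation had a median of 0.001, with 36 of 71 above 0 and 3 higher at the unadjusted level (4.23%, against 2.88% of all genes). That median was -0.056 without library 0 of each diet. These were 3 subunits of complex I: Ndufc2 at 298, 199, 179 and 228 FPKM against 151, 155 and 81.6 FPKM without overlap (0.84 ± 0.30), and Ndufb3 and Ndufa10 with overlap. The Ndufb3 difference of 1.11 became 0.45 without library 0 of each diet. Of the 10 mitochondrially encoded genes, 9 lay below 0 with a median of -0.429 (-0.242 without library 0 of each diet), and 0 had an unadjusted p under 0.05. Their mean log2(FPKM + 1) was 11.2, 9.17, 10.1 and 8.93 in the high-fat libraries and 11.6, 10.3 and 8.98 in the control libraries, so that library 0 of each diet was highest and the diets overlapped. In the input the median of the same genes was 0.278.

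Genes of the translation machinery had few members past the unadjusted level. Cytosolic ribosomal proteins lay below 0 in 67 of 78 with a median of -0.297, while 6434 of all 12478 genes lay below 0. At the unadjusted level 1 was higher and 1 lower (1.28% each, under the 2.88 and 2.84% of all genes). Their mean log2(FPKM + 1) was 8.12, 7.38, 6.97 and 7.25 in high-fat libraries and 8.03, 7.39 and 7.64 in control libraries, again with library 0 highest and overlapping groups. Rps6, which encodes S6 itself, was at 202, 184, 148 and 190 FPKM against 311, 148 and 260 FPKM, a difference of -0.35 ± 0.29. Among 75 mitochondrial ribosomal proteins, 3 were higher and 2 lower (4 and 2.67%, near the 2.88 and 2.84% of all genes), with Mrpl58 (1.11 ± 0.37) beside Mrpl17 above and Mrpl20 (-1.59 ± 0.46) below without overlap. Of 64 translation factors, 2 were higher and 2 lower (3.12% each, again near those of all genes). Eif6, which keeps ribosomal subunits apart, was at 66.0, 7.34, 12.2 and 10.3 FPKM against 3.18, 3.22 and 2.08 FPKM. Eif2b4, a subunit of the exchange factor of eIF2, was at 0.612, 3.14, 2.45 and 1.95 FPKM against 10.1, 8.19 and 9.87 FPKM. Both were without overlap.

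Proteasome subunits were lower in 4 of 34 genes at the unadjusted level (11.8%, against 2.84% of all genes) and higher in 0, with a median of -0.227, or -0.15 without library 0 of each diet. Psmd13, of the regulatory particle, was at 0.239, 5.43, 2.34 and 10.5 FPKM in high-fat libraries, against 28.4, 11.0 and 42.8 FPKM in control libraries, without overlap (-2.57 ± 0.76). Psmb4, of the catalytic core, was at 17.9, 36.7, 25.7 and 27.0 FPKM against 170, 32.3 and 65.8 FPKM with overlap, and Psmc1 and Psmc2 overlapped too. The Psmb4 difference went from -1.42 to -0.63 without library 0 of each diet, and that of Psmc2 from -1.15 to -0.43. Snhg5, a host gene of small nucleolar RNAs, was at 156, 91.1, 132 and 96.7 FPKM against 35.8, 71.1 and 9.12 FPKM without overlap (1.97 ± 0.54), the 1 gene past the unadjusted level among 15 of its kind (6.67%, against 2.88%). The median of these 15 was -0.117, or -0.271 without library 0 of each diet.

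Among cell type markers, the median lay farthest from 0 in those of the choroid plexus, the epithelium of the ventricles that makes cerebrospinal fluid. Of its 13 markers, 12 lay above 0 with a median of 0.826 (0.756 without library 0 of each diet), and 3 were higher at the unadjusted level (23.1%, against 2.88% of all genes). Their mean log2(FPKM + 1) was 4.18, 2.84, 4.33 and 4.17 in high-fat libraries and 3.75, 2.93 and 2.75 in control libraries, with high-fat library 1 among the control libraries. Folr1, a folate receptor, was at 28.3, 3.66, 18.2 and 3.93 FPKM against 3.95, 1.21 and 0.208 FPKM. Ttr, the transthyretin gene, was at 759, 237, 811 and 1364 FPKM against 551, 353 and 274 FPKM. Both genes overlapped between diets. None of the defining markers Ttr, Kl and Folr1 was at 0 in any IP library. The median of the list in the input was 0.265. Microglial markers were higher in 2 of 15 at the unadjusted level (13.3%, against 2.88% of all genes), Ctss among them. Of these markers 9 lay above 0 and 6 below. The defining markers were split, with Cx3cr1 and Tmem119 below 0 and P2ry12 above. The microglial median of 0.179 became 0.070 without library 0 of each diet. Thalamic markers were lower in 1 of 19 (5.26%, against 2.84%), Tnnt1 at 44.9, 46.8, 63.1 and 81.6 FPKM against 82.7, 95 and 156 FPKM without overlap. Of the thalamic markers 9 lay above 0 and 10 below. Their defining markers were split, with Lef1 below 0 and Tcf7l2 and Prkcd above. The thalamic median of -0.042 became 0.099 after quantile normalization. The part of these cell types in the gene differences was not tested.

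**Figure D5:**
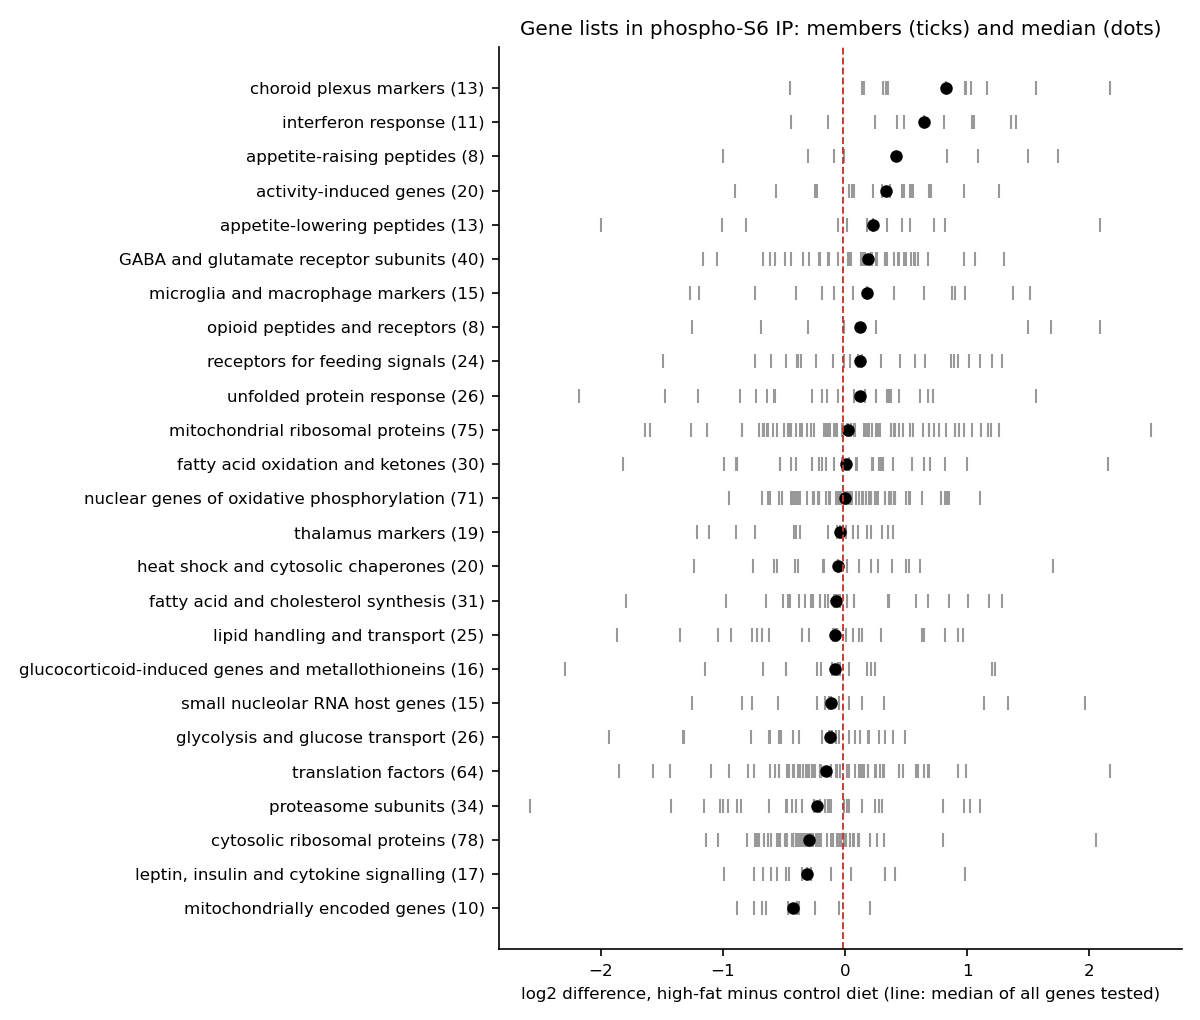
Diet difference of the members (ticks) and median (dots) of 25 gene lists in the IP, on the log2 scale, with the number of tested members in brackets and the median of all genes as a dashed line. Among the 25 lists shown, choroid plexus markers lie farthest above that line (median 0.826) and mitochondrially encoded genes farthest below it (-0.429); lists not shown lie lower still, down to -0.654.

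Over all 50 lists read, 0 held a gene past the adjusted threshold, and 22 held none past the unadjusted level. List medians lay between -0.429 and 0.414 for 45 of them. Beyond that range were choroid plexus markers, interferon response genes (0.643), 4 ependymal markers (0.614), 7 genes of monoamine and other transmitter neurons (-0.651) and 8 nuclear-retained RNAs (-0.654). Without library 0 of each diet the monoamine median was -0.194, inside that range, and that of the nuclear-retained RNAs -0.453. In the last list, Gm26917 was at 0.379, 0.861, 0.125 and 0.486 FPKM against 15.9, 3.88 and 9.41 FPKM, without overlap (-2.72 ± 0.58, unadjusted p = 0.000619, adjusted p = 0.813). It was under 1 FPKM in all input libraries. Of the genes named from the lists, Pmch, Penk, Oprm1, Irs2, Cryab, Cdkn1a, Fdft1, Gpi1, Mrpl58, Eif6, Eif2b4, Psmd13 and Lef1 have exons that overlap a gene on the other strand. Their reads within the shared stretch cannot be told apart from those of that gene.

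Transcript length went with the direction of the differences. Among 782 genes whose longest transcript exceeds 8000 bases, 31 were lower and 3 higher on high-fat diet at an unadjusted p under 0.05. Their median was -0.131, and 4.35% of them had such a p, against 5.71% of all genes. Among 1030 genes of up to 1000 bases, 20 were lower and 48 higher, 6.6% in all, with a median of 0.007. In the next longer class, of 1875 genes, 49 were lower and 97 higher, 7.79% in all. Its median of 0.086 was the highest of the length classes, so that medians did not fall steadily with length. The classes after it held 124 lower and 148 higher of 4773 genes, and 129 lower and 62 higher of 4008. Over all genes, 2.84% were lower and 2.88% higher. The excess of lower over higher values in the longest genes held under the other pseudocounts, scalings, weights and variance models run and with any 1 IP library or both libraries 0 left out (18 to 57 lower against 2 to 6 higher), in the fit over 14 libraries (102 lower and 25 higher), and in the input, with 32 lower and 4 higher. The excess of higher values in the shortest genes did not hold without high-fat library 0, where 45 were lower and 43 higher, and shrank to 36 lower and 39 higher without control library 2. The length comparison was added after the data were seen.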

How the data were processed

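The authors deposited 1 table of 14531 entries with normalized FPKM for 14 libraries, per the file headers; how libraries were scaled to each other is not given in the sources used here. Tools named without a role in the submitters' processing notes are Cufflinks 2.2.1, Cuffdiff, StringTie 1.3.4d and HISAT2 2.1.0, with the build GRCm38.p6. Per the labels' protocols, RNA was amplified with poly(T) and random primers; the library kit does not mark strand. The number of reads is unknown, so no counting intervals are given. The 7 columns of deposited IP to input ratios were not used. Columns carry an index in place of replicate numbers and were assigned to groups.

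Entries whose mean over 14 columns was 1 FPKM or more (12484) gave 12478 genes, using the entry with the highest mean for each symbol. Values of log2(FPKM + 1) were fitted with limma 3.58.1 (R 4.3.3, trended prior variance) on the 7 IP libraries, and likewise on the input. For the difference, 1 fit took 4 group means over 14 libraries. There, IP and input of 1 lysate count as independent, and both fractions share 1 spread. Tests were two-sided, with Benjamini-Hochberg adjustment at 0.05. Only the IP fit was run on simulated data, which had independent normal noise and no library set apart. That run checked the size of fitted differences and not error rates. Each p measures spread between libraries of 1 pool each. As none passed, the named genes were the 12 per direction with the smallest p, no overlap between diets and a usual symbol. Up to 4 lowest-p genes of each described list and the appetite peptides were added. Members, lists and this rule were chosen with earlier results of these data known. Positions, overlaps and lengths come from GENCODE M21. Alternatives were other pseudocounts, filters, scalings, weights and priors, and libraries left out. Some list members that entered the counts are not reported here by name.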

Additional observations from a re-analysis of the deposited data

Results flagged for a closer look

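For 8 of 133 named genes (6.02%), 1 high-fat IP library stood apart from the other 3 by Dixon's criterion at the 95% level, which flags about 5% of groups by chance. S100a10 was at 18.7 FPKM in high-fat library 1, below the others. Library 2 held Tmem176a at 0 FPKM, Eif2ak2 at 0.258 FPKM, Tbcc at 0.657 FPKM and Cyp51 at 21.1 FPKM, of which the first 2 were below and the last 2 above the other libraries. Chac1 was at 1.97 FPKM in library 3, above the others. Library 0 held Cryab at 275 FPKM and Snhg17 at 4.01 FPKM, both above the others. The diet difference of Gm17122 was different in the IP and in the input by -5.95 on the log2 scale (limma, adjusted p = 0.00529). That fit shares 1 spread between IP and input. The groups lay apart in opposite directions in the 2 fractions.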

How the results depend on the processing

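No paired analysis was possible because the columns carry an index in place of the labels' replicate numbers. The number of genes past the adjusted threshold in the IP stayed at 0 under other pseudocounts, filters and scalings and without any 1 library; it was 1 (Gm17122) with array weights, 1 (Gm17122) with a constant prior variance and 75 in 1 fit over all 14 libraries, 23 of the 24 named genes among them and Mrpl17 not. At an unadjusted p under 0.05, 713 genes became 2207 in that fit, and 533 to 1303 with 1 library left out, most without control library 1. The 791 genes without overlap became 519 at a mean FPKM of at least 5, 2764 without library 0 of both diets and 1189 to 2465 with 1 library left out, since fewer libraries overlap less often. In the input, 0 to 1 genes passed with 1 library left out. For the difference between IP and input, 1 to 128 genes passed with 1 library left out and 12 without library 0 of both diets. These fits share 1 spread between IP and input, so their p can be too small for the IP part. The diet difference in entries at 0 ran from -3.85 to 1.19 percentage points and that in mitochondrial share from -4.65 to 1.8 with 1 library left out, both reversed without control library 0.

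Among single genes, none of which was called, the sign of the log2 difference reversed as follows: Pdyn was 0.03 at a pseudocount of 0.1, 0.01 at 0.5 and 0.01 with median-ratio scaling, Pmch was 0.02 with quantile normalization and 0.24 with array weights, and Trh was -0.01 with array weights. Without library 0 of both diets, Pmch was 0.52, Penk 0.23 and Nptx2 0.24. With 1 library left out, Pmch ran from -0.38 to 0.28, Pdyn from -0.39 to 0.58, Grp from -0.20 to 1.18, Cartpt from -0.10 to 0.51, Nucb2 from -0.24 to 0.26, Cck from -0.26 to 0.21, Vip from -0.30 to 0.56, Gal from -0.06 to 1.37, Penk from -0.55 to 0.02, Tac1 from -0.01 to 0.69, mt-Nd1 from -1.19 to 0.01 and mt-Nd6 from -1.44 to 0.09. Apart from what the settings themselves change, the cause was not tested.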

Other observations

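Some further genes passed the adjusted threshold in the IP only in the fit that shared the spread of the input libraries, and were chosen after their values were seen. Leprot, the leptin receptor overlapping transcript gene, was at 3.08, 5.82, 10.3 and 6.45 FPKM in high-fat libraries, against 1.11, 0.513 and 0.695 FPKM in control libraries in the IP, without overlap (1.98 ± 0.56; adjusted p = 0.813 in the IP alone and 0.0319 in 1 fit over 14 libraries). In the input Leprot averaged 4.12 ± 1.32 FPKM (SD, n = 4) and 3.94 ± 0.167 FPKM (SD, n = 3).

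Wdr45, an autophagy protein gene, had the smallest difference among those that passed there: 103, 99.7, 122 and 101 FPKM in high-fat libraries against 65.8, 66.8 and 59.0 FPKM in control libraries (0.72 ± 0.25; adjusted p = 0.0494 in that fit). Its groups were tight in the IP, where the high-fat mean was 106 ± 10.6 FPKM (SD, n = 4). Pmp22, a myelin protein gene, was at 30.3, 22.7, 28.1 and 26.3 FPKM against 11.6, 13.7 and 11.4 FPKM (1.07 ± 0.34). Fundc1, a receptor for the removal of mitochondria by autophagy, was at 58.6, 44.3, 42.4 and 50.1 FPKM against 20.6, 30.7 and 22.8 FPKM (0.96 ± 0.31). Usp11, a deubiquitinating enzyme, was lower, at 18.8, 17.5, 15.5 and 13.8 FPKM against 27.7, 33.3 and 39.0 FPKM (-0.98 ± 0.33). None of these 5 genes overlapped between diets in the IP, and each had an adjusted p of 0.813 in the IP alone. Over all genes, 6.34% did not overlap. A choice by p for the same diet difference favours such genes, so their lack of overlap and tight groups are a description.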
